A study of Homo sapiens with 6 samples.

Results

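Promoter acetylation of histone H3 at lysine 27 (H3K27ac) was examined at the genes of the heat shock proteins and of the J-domain proteins in 2 human acute myeloid leukemia (AML) lines. Members were chosen by gene symbol alone, as the protein-coding genes on chromosomes 1 to 22 and X whose symbols start with DNAJA, DNAJB, DNAJC, HSPA or HSPB and a digit, or with HSP90, together with HSPH1. The rule gave 71 of 19970 genes. They comprised 14 HSPA, 1 HSPH1, 3 HSP90, 8 HSPB, 4 DNAJA, 12 DNAJB and 29 DNAJC genes. Each gene was described by a window that reached 2500 bases upstream and 2500 bases downstream of its canonical transcript start. The 71 windows covered 68 separate places, because the starts of HSPA1A and HSPA1L lay 260 bases apart, those of DNAJC25 and DNAJC25-GNG10 52 bases apart, and those of HSPB2 and HSPB2-C11orf52 2 bases apart.

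H3K27ac was profiled by CUT&Tag, in which an antibody brings the Tn5 transposase to the marked nucleosomes and the transposase inserts sequencing adapters there. Kasumi-1 cells carry the RUNX1-RUNX1T1 fusion gene, whereas MV4-11 cells carry KMT2A-AFF1. Each line was profiled as control (NC) and after ANP32B knockdown by a short hairpin RNA (sh-ANP32B), with 1 library per group. The 4 libraries are given below in a fixed order, NC before knockdown and Kasumi-1 before MV4-11. ANP32B encodes an acidic nuclear protein that binds histones, and the comparison asks where H3K27ac differs once ANP32B is knocked down. The labels call the NC cells untreated, whereas the study's methods describe NC cells as stably carrying a control hairpin under puromycin selection. Which ANP32B hairpin was used for these libraries is not given in the sources used here, and replicates were merged before peaks were called. There was therefore no spread between replicates and no test within a line was possible. The lines are not replicates of each other and no test was run over both, so every difference below describes these libraries only.

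HSP70 proteins (the HSPA genes) bind unfolded stretches of other proteins and release them in a cycle driven by ATP. J-domain proteins (the DNAJ genes) bring clients to HSP70 and start ATP hydrolysis, and HSPH1 and the HSPA4 proteins exchange the nucleotide afterwards. HSP90 proteins finish the folding of kinases and receptors, and the small heat shock proteins (HSPB) hold unfolded proteins without using ATP. On stress, the transcription factor HSF1 binds heat shock elements in the promoters of the inducible members, whereas the unfolded protein response drives the members of the endoplasmic reticulum (ER). H3K27ac marks active promoters and enhancers, and many cancer cells are known to depend on HSP70 and HSP90.

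The files held the position and length of each peak, with no height and no read total, so depth is unknown. The 4 lists held between 22112 and 24491 peaks on chromosomes 1 to 22 and X. Peaks covered 32.7, 33.6, 27.9 and 23.0 Mb. Their median length was 1045, 980, 815 and 742 bases in that order, and the shortest peak was 357, 354, 289 and 275 bases. Of 10 myeloid and blood marker genes, 7, 7, 8 and 6 had a promoter peak in that order. MPO, which defines the myeloid lineage, had none in any library, and RUNX1T1, the fusion partner in Kasumi-1, had none at its own canonical start. HOXA9 and MEIS1, listed as target genes of the MV4-11 fusion, had a peak in all 4 libraries and did not set MV4-11 apart. HOXA9 had 4335, 4707, 769 and 659 bases under promoter peaks in that order, and MEIS1 had 3103, 3264, 3337 and 3123. The 4 epithelial, 3 fibroblast and 1 liver marker genes had none in any library. Of 5 lymphoid genes, 2 had a peak in both Kasumi-1 libraries and 1 in both MV4-11 libraries. The MV4-11 knockdown list was thus shorter in total than the MV4-11 NC list, and the part of that difference in the values below was not tested.

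The promoters that the results turn on are shown first. In 6 of the 7 they hold heat shock elements, and in HSPA5 an ER stress element. Each is the 250 bases before the start, 5′ to 3′ on the strand of the gene, from RefSeq on GRCh38. Capitals mark heat shock element pairs (GAANNTTC or TTCNNGAA, which read the same on both strands) or triplets (a pair continued by another GAA or TTC unit after the same spacing), and in HSPA5 that ER stress element, CCAAT and CCACG 9 bases apart. All were sought on both strands.
HSPA1A (chr6:31815293-31815542, + strand): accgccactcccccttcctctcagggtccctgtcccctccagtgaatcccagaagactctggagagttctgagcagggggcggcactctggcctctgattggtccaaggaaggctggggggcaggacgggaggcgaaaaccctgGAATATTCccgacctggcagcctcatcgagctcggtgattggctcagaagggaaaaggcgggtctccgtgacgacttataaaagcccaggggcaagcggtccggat
HSPA1B (chr6:31827488-31827737, + strand): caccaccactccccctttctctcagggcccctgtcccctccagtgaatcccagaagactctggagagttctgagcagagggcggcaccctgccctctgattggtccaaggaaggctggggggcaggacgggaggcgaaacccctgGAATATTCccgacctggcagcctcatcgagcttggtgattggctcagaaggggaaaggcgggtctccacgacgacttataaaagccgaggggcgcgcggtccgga
HSP90AA1 (chr14:102087045-102087294, - strand): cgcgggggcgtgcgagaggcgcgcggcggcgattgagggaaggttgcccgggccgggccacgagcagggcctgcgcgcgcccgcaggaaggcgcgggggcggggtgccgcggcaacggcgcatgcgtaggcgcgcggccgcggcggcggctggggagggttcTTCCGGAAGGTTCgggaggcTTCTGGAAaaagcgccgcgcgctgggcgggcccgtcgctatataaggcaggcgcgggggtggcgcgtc
HSPB1 (chr7:76302423-76302672, + strand): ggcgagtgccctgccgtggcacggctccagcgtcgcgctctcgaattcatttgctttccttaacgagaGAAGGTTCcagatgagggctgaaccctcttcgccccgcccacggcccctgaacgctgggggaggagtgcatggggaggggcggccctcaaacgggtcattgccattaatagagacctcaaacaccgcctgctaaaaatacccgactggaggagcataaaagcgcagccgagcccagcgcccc
DNAJB1 (chr19:14518398-14518647, - strand): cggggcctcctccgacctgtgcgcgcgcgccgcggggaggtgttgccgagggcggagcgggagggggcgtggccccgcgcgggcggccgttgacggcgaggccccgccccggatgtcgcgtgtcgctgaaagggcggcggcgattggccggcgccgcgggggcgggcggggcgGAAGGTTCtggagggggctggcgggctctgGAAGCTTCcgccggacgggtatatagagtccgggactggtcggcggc
HSPA8 (chr11:123062137-123062386, - strand): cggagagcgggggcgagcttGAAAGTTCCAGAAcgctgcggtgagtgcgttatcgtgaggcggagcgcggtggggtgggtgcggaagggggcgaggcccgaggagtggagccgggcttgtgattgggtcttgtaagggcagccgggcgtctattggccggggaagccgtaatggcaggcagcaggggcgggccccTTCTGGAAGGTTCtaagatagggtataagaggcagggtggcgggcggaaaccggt
HSPA5 (chr9:125241344-125241593, - strand): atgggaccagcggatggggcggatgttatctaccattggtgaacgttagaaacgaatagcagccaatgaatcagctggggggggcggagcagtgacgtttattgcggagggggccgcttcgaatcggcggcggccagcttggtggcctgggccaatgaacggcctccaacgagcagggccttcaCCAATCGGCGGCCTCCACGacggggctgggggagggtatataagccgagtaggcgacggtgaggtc
HSPA1A and HSPA1B, the paired stress-inducible HSP70 genes, carried the same letters GAATATTC 106 and 105 bases upstream of their starts, and an alignment of their RefSeq promoters, 50 transcribed bases included, gave 92.0% of positions the same. HSP90AA1 held a triplet 88 bases upstream and a further pair 68 bases upstream. HSPA8, the constitutive HSP70, held triplets 230 and 55 bases upstream. DNAJB1, the main J-domain partner of the inducible HSP70s, held pairs 77 and 47 bases upstream, and HSPB1 held 1 pair 182 bases upstream.

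More members had a promoter peak in Kasumi-1 than in MV4-11, and fewer had one in sh-ANP32B than in NC of either line. A promoter peak was present where a peak covered at least 1 base of the window. In Kasumi-1 NC 49 of 71 members (69.0%) had one, against 47.8% of all genes. In Kasumi-1 knockdown the count was 43 (60.6%), against 45.4% of all genes. In MV4-11 NC it was 32 (45.1%), against 35.8%, and in MV4-11 knockdown it was 26 (36.6%), against 28.7%. Members were thus above the share of all genes in each library, and the order of the libraries was that of all genes. With only peaks of at least 1000 bases, the counts were 33, 35, 15 and 9 in the fixed library order. Under that limit Kasumi-1 knockdown thus stood above Kasumi-1 NC. A promoter peak was present in all 4 libraries at 21 members (29.6%, all genes 26.0%) and in none at 22 members (31.0%, all genes 50%).

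**Figure D1:**
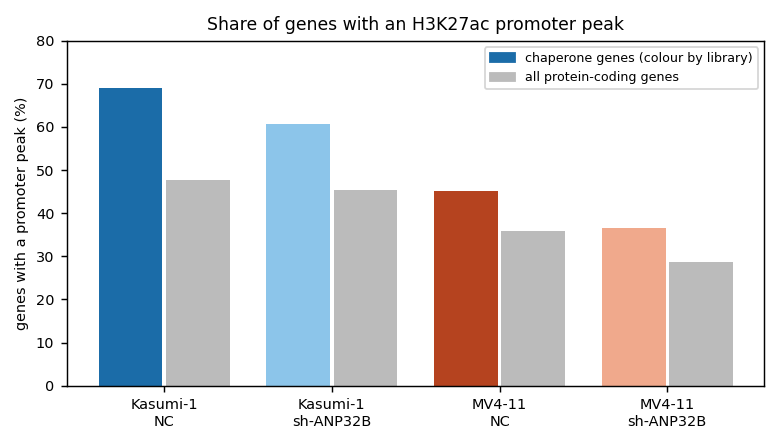
Share of genes with an H3K27ac promoter peak, in percent, for the 71 chaperone genes (coloured bars, 1 per library) and all 19970 protein-coding genes (grey bars). The chaperone bars run from 69.0% in Kasumi-1 NC to 36.6% in MV4-11 knockdown, and each stands above its grey bar.

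After the knockdown in Kasumi-1, 6 members lost their promoter peak (present in NC, absent after knockdown) and none gained one. The 6 were DNAJB11, DNAJB2, DNAJC10, DNAJC21, DNAJC25 and DNAJC25-GNG10, where the last pair shared 1 peak. They made up 12.2% of the 49 with an NC peak, against a background of 6.79% of all genes, and gains took 1.61% of all genes without an NC peak. Their NC peaks were narrow, between 486 and 936 bases. When only peaks of at least 1000 bases were used, 1 member was lost, DNAJC11, and 3 were gained, DNAJA4, DNAJC4 and HSPA4L.

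Among the 43 members kept in Kasumi-1, the bases under peaks in the window were on balance slightly higher in sh-ANP32B. The bases under peaks were higher at 30 (69.8%, all genes 51.5%), lower at 12 (27.9%, all genes 47.2%) and equal at DNAJB14. The median log2 ratio of bases, sh-ANP32B over NC, was 0.06, against 0.00 for all genes, and single members ranged from -0.63 to 0.82. In a window of 1000 bases to each side the median of the members was 0.01. Few members passed 1.5-fold. DNAJC8, DNAJA4 and HSPA9 were higher (6.98%, all genes 3.43%), and DNAJA1 and DNAJC11 were lower (4.65%, all genes 8.64%).

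In MV4-11 the knockdown library had fewer and narrower promoter peaks, at the members as at all genes. Of the 32 members with an NC peak, 8 lost it (25.0%, all genes 24.4%), namely DNAJA2, DNAJB12, DNAJB14, DNAJC17, DNAJC8, HSP90AA1, HSPB1 and HSPB6. A peak was gained at 2 of the 39 without one (5.13%, all genes 2.46%), HSPA5 and DNAJC18. At the 24 members kept, bases were lower at 19 (79.2%, all genes 75.6%) and higher at 5 (20.8%, all genes 23.9%). They were lower by 1.5-fold or more at 9 (37.5%, all genes 29.9%) and higher by as much at DNAJC10 and HSP90AB1 (8.33%, all genes 4.23%). The median log2 ratio was -0.31, against -0.27 for all genes. The shares lost and lower stood near those of all genes. With only peaks of at least 1000 bases, 7 members were lost, of which DNAJB14 and HSPB6 were among the 8 named above, and the calls at HSP90AA1, HSPB1, DNAJA2, DNAJB12, DNAJC8 and DNAJC17 ended. Under the same limit 0 members were lower by 1.5-fold and the median was -0.04.

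**Figure D2:**
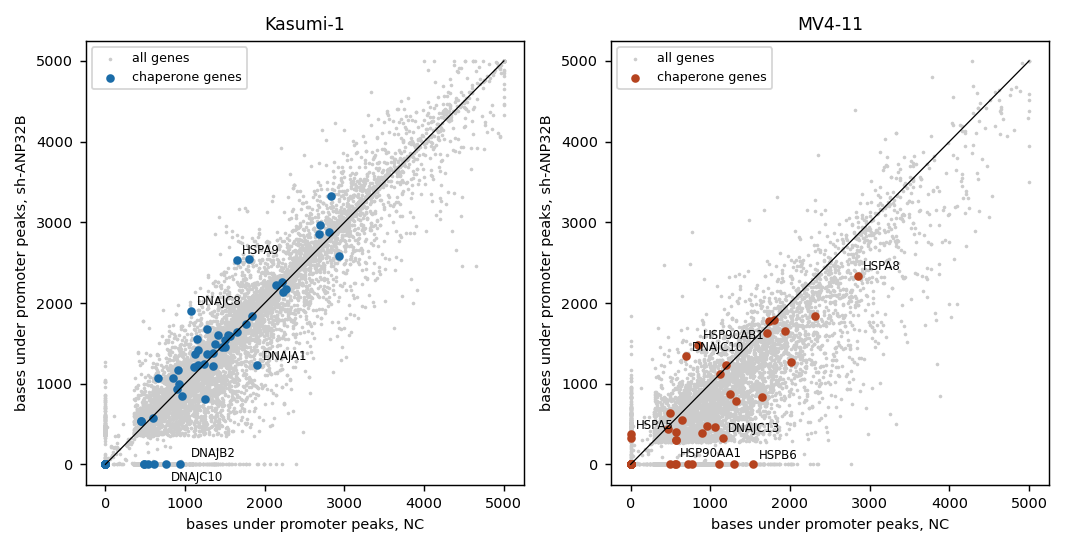
Bases under promoter peaks in sh-ANP32B (vertical axis) against NC (horizontal axis), in bases per window of 5001, for all genes (grey) and the chaperone genes (coloured), with the line of equal values in black. The coloured points lie around the line in Kasumi-1 and mostly below it in MV4-11, where HSP90AB1 and DNAJC10 lie above it and HSP90AA1 and HSPB6 lie on the horizontal axis at 0.

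Between the NC libraries the members with a peak in 1 line were all on the Kasumi-1 side. A peak was present in Kasumi-1 NC alone at 17 members (23.9%, all genes 13.3%), in MV4-11 NC alone at 0 (all genes 1.40%) and in both at 32 (45.1%, all genes 34.4%). MV4-11 NC thus had a peak at 65.3% of the members with one in Kasumi-1 NC, against 72.1% of all such genes. At those 32, bases were lower in MV4-11 at 24 (75.0%, all genes 81.1%) and higher at 8 (25.0%, all genes 18.7%), with a median log2 ratio of -0.51 against -0.58 for all genes. They were lower by 1.5-fold or more at 15 (46.9%, all genes 49.7%) and higher by as much at 0 (all genes 4.30%). The lines also differ in library and in the width of all their peaks, which cannot be told apart.

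**Figure D3:**
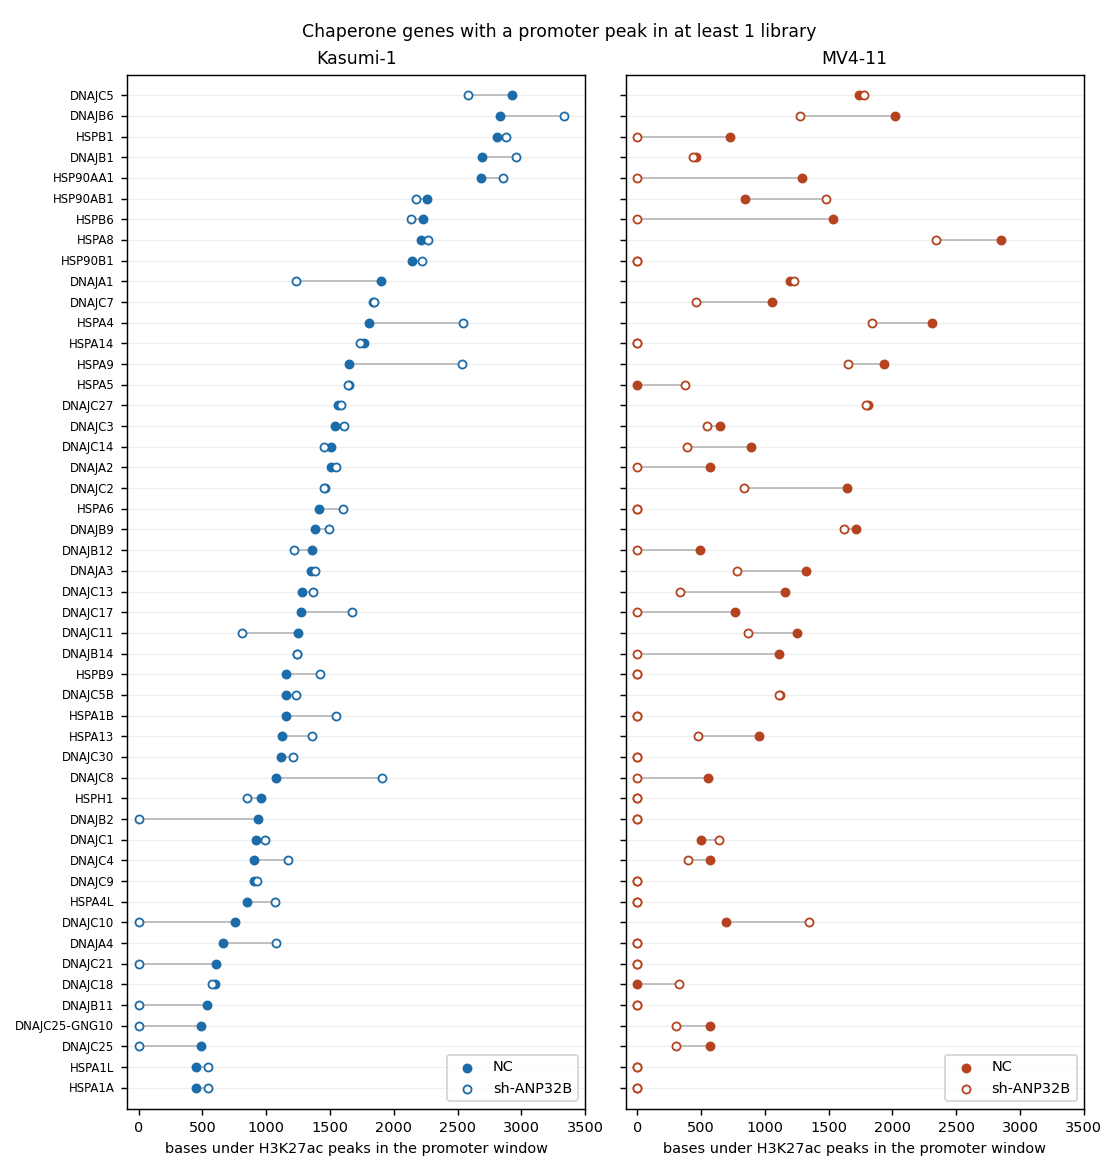
Bases under H3K27ac peaks in the promoter window for the 49 chaperone genes with a peak in at least 1 library, ordered by their Kasumi-1 NC value, with NC as filled and sh-ANP32B as open circles and a grey line between them. In Kasumi-1 most pairs lie close together and the 6 lost genes have an open circle at 0, whereas in MV4-11 17 genes lie at 0 in NC and 23 in sh-ANP32B.

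The stress-inducible cytosolic chaperones had promoter peaks at most genes in Kasumi-1 and at fewer in MV4-11, on chromosomes 1 to 22 and X. Of 9 such genes, 8 had a peak in each Kasumi-1 library, 3 in MV4-11 NC and 1 in MV4-11 knockdown. All genes had one at 47.8%, 45.4%, 35.8% and 28.7% in the fixed library order, beside which this and the following small role counts stand. HSPA1A and HSPA1B, counted here as without one in MV4-11, had MV4-11 peaks on other versions of chromosome 6, given below. HSP90AA1, the inducible HSP90, had 2683 bases under peaks in Kasumi-1 NC, 2858 in Kasumi-1 knockdown, 1294 in MV4-11 NC and 0 in MV4-11 knockdown. In Kasumi-1 NC this was 1 unbroken peak at chr14:102086322-102089004 on hg38, from 1960 bases upstream to 722 bases downstream of the start. In MV4-11 NC it was broken into 3 peaks of 476, 337 and 481 bases, none of which covered the triplet printed above, and in MV4-11 knockdown the nearest peak was 121522 bases away.

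HSPB1, the small heat shock protein HSP27, had 2808 and 2881 bases in Kasumi-1, 725 in MV4-11 NC and 0 in MV4-11 knockdown. The Kasumi-1 NC value was thus 3.87-fold that of MV4-11 NC, and the MV4-11 NC peak, at chr7:76302229-76302953, ran from 444 bases upstream to 280 downstream, over the whole printed promoter. DNAJB1 kept a peak in all 4 libraries, of 2693, 2961, 464 and 435 bases, and its 5.80-fold gap between the NC libraries was the widest of the members with a peak in both. Both MV4-11 peaks of DNAJB1 began 30 bases upstream of the start, so that they left both heat shock element pairs uncovered.

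HSPA6, an HSP70 that is transcribed almost only under stress, had 1417 and 1605 bases in Kasumi-1 and 0 in both MV4-11 libraries. Its window has a near copy elsewhere on chromosome 1, 96.3% the same over 5024 aligned bases, which held no peak in any library. HSPH1, the HSP110 exchange factor, had 956 and 848 bases in Kasumi-1, starting 35 and 36 bases downstream of the start, and 0 in MV4-11. DNAJA4, a heat-inducible J protein, had 662 bases in Kasumi-1 NC against 1075 in its knockdown (1.62-fold) and 0 in MV4-11. DNAJB4, a J protein of the same class as DNAJB1, had no peak in any library, and its promoter holds an element pair.

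The HSPA1 genes were the members whose absence in MV4-11 depended on which sequences were read. On chromosome 6 itself HSPA1A had 451 bases in Kasumi-1 NC, 541 in Kasumi-1 knockdown and 0 in both MV4-11 libraries. Its Kasumi-1 peaks lay 1349 to 899 and 1504 to 964 bases upstream, away from the start, and the same peaks served HSPA1L, the testis HSP70 gene on the opposite strand. HSPA1B had 1152 and 1550 bases in Kasumi-1 and 0 in MV4-11, and its Kasumi-1 peaks ran over the start to 206 bases downstream. A stretch of 2445 bases around the HSPA1B start is 98.1% the same in HSPA1A.

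The lists also held peaks on alternate haplotypes, which are further versions of variable regions in hg38. They held 897, 953, 816 and 725 such peaks, in the fixed library order. The windows of HSPA1A and HSPA1B each had 4 full-length copies there. A peak was present on 2, 4, 2 and 2 copies of HSPA1A and on 4, 4, 3 and 1 copies of HSPA1B, in the same library order. The MV4-11 peaks on these copies held 337 to 371 bases at HSPA1A and 380 to 799 at HSPA1B, and the Kasumi-1 peaks 464 to 1026 and 502 to 1856. With copies counted, HSPA1A, HSPA1B and HSPA1L had a peak in all 4 libraries, and the members with a peak numbered 49, 43, 35 and 29. None of the MV4-11 peaks on these copies covered a start. The highest value over the copies was larger in Kasumi-1 than in MV4-11 for both genes, but on 2 of the 4 HSPA1A copies MV4-11 NC had a peak and Kasumi-1 NC had none. The part of read placement among the copies in these values was not tested.

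**Figure D4:**
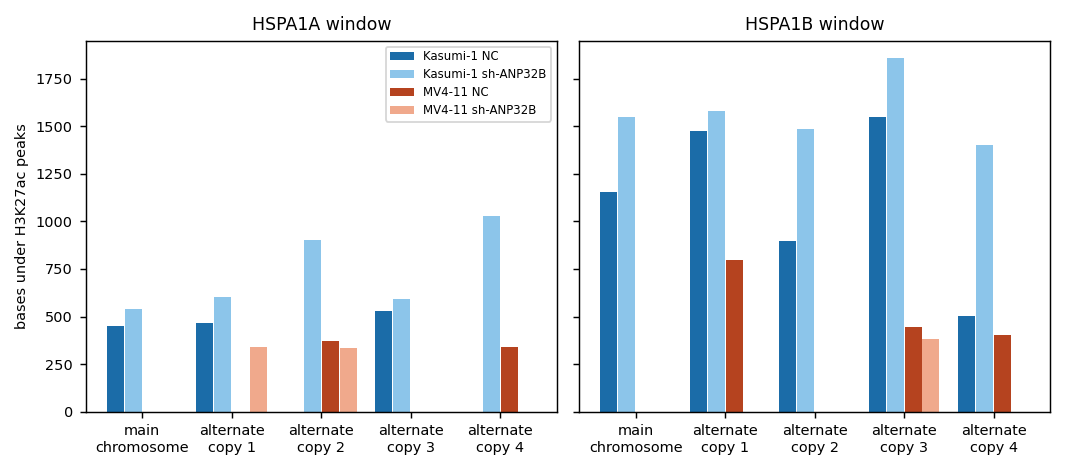
Bases under H3K27ac peaks in the HSPA1A and HSPA1B windows on chromosome 6 (main chromosome) and on their 4 alternate haplotype copies, by library. MV4-11 bars are absent on the main chromosome and reach at most 371 bases at HSPA1A and 799 at HSPA1B on the copies, below the highest Kasumi-1 bars of 1026 and 1856.

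The constitutive cytosolic chaperones had a peak at 5 of 5 genes in each Kasumi-1 library and at 3 of 5 in each MV4-11 library. HSPA8, the HSP70 of unstressed cells, had 2215 bases in Kasumi-1 NC, 2265 in Kasumi-1 knockdown, 2852 in MV4-11 NC and 2340 in MV4-11 knockdown. It held the widest promoter cover of any member in both MV4-11 libraries, where it stood at the percentiles 94.2 and 91.3 of all genes with a promoter peak, and both of its triplets lay under a peak in every library. HSPA4, an HSP110-type exchange factor, had 1804, 2546, 2309 and 1841 bases in the same order, so that the knockdown libraries were higher in Kasumi-1 and lower in MV4-11.

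HSP90AB1, the constitutive HSP90, differed from HSP90AA1 after the knockdown in MV4-11. It had 2264 and 2173 bases in Kasumi-1, 844 in MV4-11 NC and 1482 in MV4-11 knockdown, 1.76-fold higher, where the peak reached 1040 instead of 354 bases downstream. HSPA4L, a relative of HSPA4, had 847 and 1067 bases in Kasumi-1 and 0 in MV4-11. HSPA14, an HSP70 that works at the ribosome, had 1766 and 1734 bases in Kasumi-1 and 0 in MV4-11, and its window also held the starts of CDNF and MSANTD7.

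**Figure D5:**
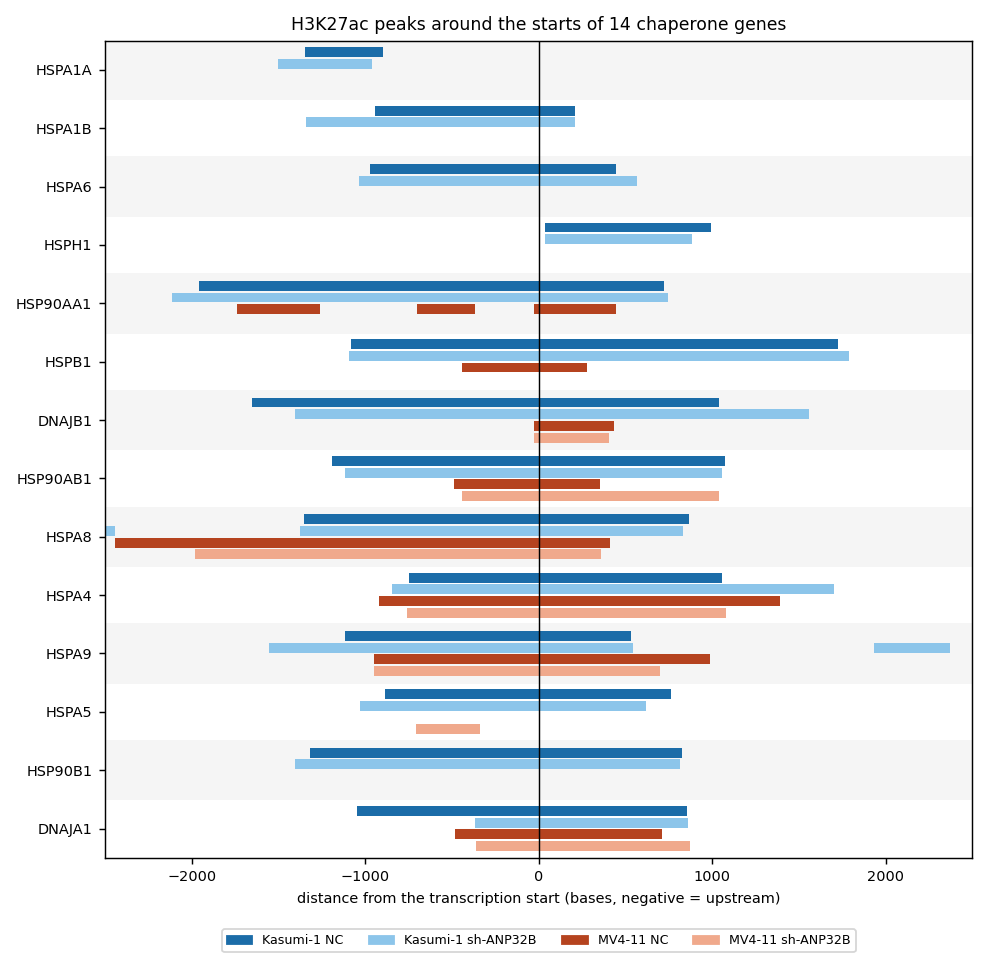
H3K27ac peaks around the starts of 14 chaperone genes, as bars in bases from the start (vertical line, negative values upstream), with 1 row of bars per library. HSPA8, HSPA4, HSPA9, DNAJA1, DNAJB1 and HSP90AB1 have a bar over the start in all 4 libraries, whereas HSPA1A, HSPA1B, HSPA6, HSPH1 and HSP90B1 have bars in Kasumi-1 only.

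Of 11 cytosolic and nuclear J proteins, 10 had a peak in Kasumi-1 NC, 8 in Kasumi-1 knockdown, 7 in MV4-11 NC and 4 in MV4-11 knockdown. DNAJA1, a J-domain partner of HSPA8, had 1902 bases in Kasumi-1 NC against 1232 in its knockdown (0.648-fold), where the peak began 370 instead of 1045 bases upstream of the start. In MV4-11 it had 1195 and 1232 bases, so that 3 of the 4 libraries lay close together. DNAJA2, a relative with the same partner, had 1505 and 1545 bases in Kasumi-1, 573 in MV4-11 NC and 0 in MV4-11 knockdown.

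DNAJB6, a J protein that holds back protein aggregates, had 2835, 3330, 2019 and 1275 bases. In MV4-11 knockdown its single NC peak was replaced by a pair at 736 to 398 bases upstream and 604 to 1539 downstream, so that the start itself was no longer under a peak. DNAJC7, which links HSP70 with HSP90, had 1834, 1845, 1058 and 463 bases. DNAJC2, the ribosome J protein that works with HSPA14, had 1463, 1451, 1644 and 839 bases. These 3 genes were lower in MV4-11 knockdown than in MV4-11 NC, and within 1.17-fold of NC in Kasumi-1.

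DNAJC8 and DNAJC17 take part in splicing, and both were higher in Kasumi-1 knockdown and at 0 in MV4-11 knockdown. DNAJC8 had 1077, 1905, 552 and 0 bases, of which the Kasumi-1 values include a second peak at the far upstream edge of the window. DNAJC17 had 1273, 1674, 767 and 0 bases, and its window also held the start of ZFYVE19. DNAJC9, a chaperone of histones H3 and H4, had 903 and 930 bases in Kasumi-1 and 0 in MV4-11, where the nearest peaks lay 4675 and 4652 bases away. DNAJC21, which takes part in making ribosomes, and DNAJB2, which works with the proteasome, had 610 and 936 bases in Kasumi-1 NC and 0 in the other 3 libraries, and DNAJB5 had none in any.

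Of 14 ER genes, 13 had a peak in Kasumi-1 NC, 10 in Kasumi-1 knockdown and 9 in each MV4-11 library. HSPA5 (BiP), the ER HSP70 and main target of the unfolded protein response, had 1646 and 1644 bases in Kasumi-1, 0 in MV4-11 NC and 373 in MV4-11 knockdown. The MV4-11 peak, at chr9:125241680-125242052, lay 709 to 337 bases upstream, so that it touched neither the start nor the ER stress element 66 bases upstream. HSP90B1 (GRP94), the ER HSP90, had 2141 and 2222 bases in Kasumi-1 and 0 in both MV4-11 libraries, and it is the other member whose promoter held the ER stress element.

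The ER J proteins differed among themselves. DNAJB9, which binds HSPA5 and restrains stress signalling, had 1379, 1495, 1711 and 1624 bases, the most of the ER genes in both MV4-11 libraries, and its window also held the start of THAP5. DNAJC3, which restrains the translation block of ER stress, had 1541, 1608, 646 and 546 bases. DNAJB11, a soluble partner of HSPA5, had 534 bases in Kasumi-1 NC and 0 elsewhere.

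DNAJC10, an ER J protein that reduces disulfide bonds, differed in opposite directions in the 2 lines. It had 757 bases in Kasumi-1 NC against 0 in its knockdown, whereas it had 699 in MV4-11 NC and 1343 in MV4-11 knockdown (1.92-fold). The MV4-11 NC peak ended 613 bases upstream of the start, and the 3 peaks of MV4-11 knockdown included 1 over the start. No test of this contrast between the lines was possible.

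DNAJB12 and DNAJB14, membrane J proteins that take part in clearing misfolded proteins, both lost their peak in MV4-11 and kept it in Kasumi-1. DNAJB12 had 1356, 1221, 493 and 0 bases and DNAJB14 1241, 1241, 1115 and 0. DNAJC14, a membrane J protein, had 1506, 1453, 894 and 390 bases, and HSPA13, an HSP70 of the microsomes, had 1128, 1363, 958 and 476. DNAJC1, a membrane J protein that binds HSPA5, was among the few members higher in MV4-11 knockdown, with 920, 990, 497 and 638 bases. DNAJC18 had 602 and 574 bases in Kasumi-1, 0 in MV4-11 NC and 325 in MV4-11 knockdown. DNAJC25 had 486, 0, 571 and 302 bases, and DNAJC16 had no peak in any library.

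Of 6 mitochondrial genes, 4 had a peak in each Kasumi-1 library and 3 in each MV4-11 library. HSPA9 (mortalin), the HSP70 of the mitochondrial matrix, had 1648, 2538, 1937 and 1649 bases. Its Kasumi-1 knockdown value was 1.54-fold above NC and included a separate peak of 439 bases downstream, and in a window of 1000 bases to each side the difference was 12 bases. DNAJA3, the matrix J protein, had 1353, 1384, 1324 and 784 bases, and in MV4-11 knockdown its peak ended 20 bases before the start.

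DNAJC11, a J protein of the mitochondrial membranes, was the mitochondrial gene lower after the knockdown in both lines, with 1250 and 810 bases in Kasumi-1 and 1249 and 869 in MV4-11 (0.648-fold and 0.696-fold). DNAJC30 had 1117 and 1212 bases in Kasumi-1 and 0 in MV4-11, and its window also held the start of BUD23. DNAJC15 and DNAJC19, J proteins of the import motor, had no peak in any library.

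Of the vesicle and endosome J proteins, 3 of 4 had a peak in every library. DNAJC5, the cysteine string protein of secretory vesicles, had 2929, 2582, 1742 and 1776 bases in the window. Its Kasumi-1 peaks ran on into the gene, to 5871 bases in NC and 10889 in sh-ANP32B in all. DNAJC5B, its close relative, had 1156, 1236, 1123 and 1114 bases, all downstream of the start. DNAJC13, an endosome J protein, had 1277, 1370, 1157 and 333 bases, and its log2 ratio of -1.80 in MV4-11 was the lowest of the members kept. DNAJC6 (auxilin), which strips clathrin from vesicles, had none.

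The small heat shock proteins other than HSPB1 mostly had no peak. HSPB6 and HSPB9 had one in Kasumi-1, and HSPB2, HSPB3, HSPB7 and HSPB8, which act mainly in muscle and nerve, had none in any library. HSPB6 had 2225, 2133, 1536 and 0 bases, and the start of PROSER3 lay 1147 bases upstream of its own, under the same peaks. HSPB9 had 1158 and 1422 bases in Kasumi-1 and 0 in MV4-11, and these peaks lay 1051 bases or more upstream in NC, over the start of KAT2A. For neither gene can the windows say to which start a peak belongs.

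The 16 members given no role here had a peak at 4, 3, 3 and 3 genes, in the fixed library order. DNAJC27, which joins a J domain to a small GTPase, had 1566, 1587, 1805 and 1791 bases, the steadiest pair in MV4-11 beside DNAJC5B. DNAJC4 had 907, 1170, 574 and 401 bases, and HSPA1L and DNAJC25-GNG10 shared the peaks of HSPA1A and DNAJC25. The other 12 had no peak in any library: DNAJB13, DNAJB7, DNAJB8, DNAJC12, DNAJC22, DNAJC24, DNAJC28, DNAJC5G, HSPA12A, HSPA12B, HSPA2 and HSPB2-C11orf52. HSPA2 is the HSP70 of male germ cells, and DNAJB7, DNAJB8 and DNAJB13 are likewise known from the testis.

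Most members without a promoter peak had none within 10000 bases of the start either. In Kasumi-1 NC the nearest peak of the 22 without one lay a median of 34141 bases from the start, from 4621 at DNAJB7 to 750882 at DNAJC15, and 2 had one within 10000 bases. In Kasumi-1 knockdown the 28 without one had a median of 31864 bases, and 4 had one within 10000 bases. In MV4-11 NC the 39 without one had a median of 31718 bases, and 9 had one within 10000 bases. In MV4-11 knockdown the median for 45 members was 49503 bases and 7 were within 10000. The same distances over all genes without a promoter peak are not given here, so these values describe the members only. A window that also held the start of a gene outside the symbol rule was found at 10 members. Of these, 7, 7, 4 and 2 had a peak in the fixed library order, against 42, 36, 28 and 24 of the other 61. Genes with such windows were not counted among all genes, so these counts describe the members only.

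The peaks mostly covered the start itself. The start was under a peak at 41 of 49 members in Kasumi-1 NC (83.7%, all genes 86.7%), 37 of 43 in Kasumi-1 knockdown (86.0%, all genes 77.8%), 25 of 32 in MV4-11 NC (78.1%, all genes 66.4%) and 15 of 26 in MV4-11 knockdown (57.7%, all genes 57.5%). Of members kept whose start was under an NC peak, 1 of 38 no longer had it covered in Kasumi-1 (2.63%, all genes 13.5%), DNAJC11. In MV4-11 it was 6 of 19 (31.6%, all genes 23.6%), DNAJA3, DNAJB6, DNAJC13, DNAJC14, DNAJC4 and HSPA13. The window held 2 or more peaks at 4 members in Kasumi-1 NC (8.16%, all genes 11.4%), 7 in Kasumi-1 knockdown (16.3%, all genes 15.7%), 3 in MV4-11 NC (9.38%, all genes 16.1%) and 2 in MV4-11 knockdown (7.69%, all genes 19.2%). The median bases under promoter peaks were 1277, 1495, 1086.5 and 811.5 at the members with a peak, and 1500, 1522, 1046 and 911 at all genes, in the order of libraries used above.

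Heat shock element pairs were found both at members with peaks and at members without. Triplets were found in 5 of the 46 matched members with a peak in any library and in 0 of the 17 with none. RefSeq promoters, 250 bases before to 50 after the start, were matched for 63 of the 71 members and for 15320 of all genes. At 59 members the RefSeq start was the canonical start, and at the others it lay up to 545 bases away. For HSPH1, counted as without a pair, the offset was -484 bases (negative upstream), so its canonical start was not searched. A pair was present in 20 members (31.7%, all promoters 10.9%) and a triplet in 5 (7.94%, all promoters 0.359%), DNAJA1, DNAJB6, HSP90AA1, HSPA6 and HSPA8. Neighbouring pairs can share letters with each other and with a triplet, and the promoters of HSPA1A and HSPA1L overlap. Among matched members with a peak in both Kasumi-1 and no MV4-11 library, 6 of 11 held a pair, of which 3 were HSPA1A, HSPA1B and HSPA1L with their peaks on alternate haplotype copies in MV4-11. The share was 5 of 19 where all 4 libraries had a peak, 3 of 8 among those lost in MV4-11, 0 of 6 among those lost in Kasumi-1 and 6 of 17 where no library had one.

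Other promoter letters were counted in the same way. CCAAT, on either strand, was present in 25 members (39.7%, all promoters 36.6%) and TATAAA in 10 (15.9%, all promoters 9.43%). The ER stress element was present in 2 (3.17%, all promoters 0.131%), HSPA5 and HSP90B1. Median GC content was 64.7% for the members and 63.7% for all promoters. It was 65.2% in the 46 matched members with a peak in any library and 60.0% in the 17 with none. The median ratio of observed to expected CpG was 0.90 and 0.61 in these 2 groups, 0.87 for the members and 0.78 for all promoters. All promoters were not split by peak, so whether this gap is particular to the members was not tested. A match is a match of letters only, and binding of HSF1 was not measured.

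The other genes of the chaperone system, 50 genes outside the symbol rule, had peaks at 43, 41, 31 and 28 genes. The shares of all genes were 47.8%, 45.4%, 35.8% and 28.7% in the same library order. HSF1, the main heat shock factor, had 2200 bases in Kasumi-1 NC, 1303 in Kasumi-1 knockdown, 524 in MV4-11 NC and 482 in MV4-11 knockdown, and HSF2, HSF4 and HSF5 had none. HSPD1 and HSPE1, the mitochondrial chaperonin and its partner, share 1 promoter with 2208, 2138, 1010 and 611 bases. BAG3, an HSP70 exchange factor, and PFDN6, a prefoldin subunit, lost their peak in Kasumi-1, and none of the 50 gained one there. In MV4-11 the peak was lost at 6 of 31, BAG2, HSPBP1, AHSA1, FKBP4, CCT2 and VBP1, and gained at 3, FKBP5, STIP1 and UNC45A. Among all genes with an NC peak, 6.79% lost it in Kasumi-1 and 24.4% in MV4-11. Among all genes without one, 1.61% gained a peak in Kasumi-1 and 2.46% in MV4-11.

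STIP1, which joins HSP70 to HSP90, had 3778 and 4110 bases in Kasumi-1, 0 in MV4-11 NC and 446 in MV4-11 knockdown. CDC37, which brings kinases to HSP90, had 2347 and 1785 bases in Kasumi-1 and 0 in MV4-11, as had HSP90B1 among the members. The median log2 ratio of these genes was -0.05 in Kasumi-1, where bases were higher at 15 and lower at 26 of the 41 kept, and -0.25 in MV4-11. The slightly higher Kasumi-1 knockdown values of the members were thus not seen in the rest of the list, and the difference between the lists was not tested.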

How the data were processed

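Per the labels, H3K27ac CUT&Tag was done on Kasumi-1 and MV4-11 cells, as NC and sh-ANP32B, and 4 peak lists were used, 1 per group. The 2 IgG libraries are not analysed here, and the sources used here do not say whether peaks were called against them. The authors aligned reads to hg38, removed duplicates, merged replicates and called peaks. The submitters' processing notes name Bowtie2 2.4.4 and MACS3 3.0, whereas the study's methods name other versions of Bowtie2 and MACS2. The deposited lists give each peak's position and length in bases, with no signal, score or count, so that peak width depends on depth and on the minimum width of each list.

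Windows of 2500 bases to each side of canonical starts came from GENCODE 44. A promoter peak was lost if present in NC but absent after the knockdown, and gained if the opposite held. Bases under peaks were compared as ratios where both libraries had a peak, with 1.5-fold as the threshold, and beside all 19970 genes. Percentiles rank a gene's bases among all genes with a promoter peak in that library. Alternate haplotype copies were found with minimap2 2.31, as full-length where at least 4500 bases aligned at 95% identity or more. Scripts ran in Python 3.11.15 with pandas 2.3.3, and were tested on simulated windows.

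Members and gene lists were chosen with earlier results of these data known. Named were the main chaperones, every member that lost or gained a peak, those with an NC peak in 1 line only, the members with the 5 largest and 5 smallest ratios per line, and those with no peak. Further members were given to complete each role, and the ER stress element was searched after the data were seen. Alternatives to the window, start, peak width, overlap and fold were tried.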

Additional observations from a re-analysis of the deposited data

Results flagged for a closer look

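DNAJC10 differed in opposite directions between the lines. Its bases under promoter peaks differed by -757 between sh-ANP32B and NC in Kasumi-1 and by 644 in MV4-11. With 1 library per group, this difference between the lines was not tested.

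DNAJC8 did so in the reverse sense, with a difference of 828 bases in Kasumi-1 and -552 in MV4-11, which was likewise not tested.

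Peaks on alternate haplotypes of chromosome 6, outside the sequences used for the comparisons, were present at the HSPA1 genes in MV4-11, where chromosome 6 itself had none. Of the 4 full-length copies of the HSPA1A window, 2 had a peak in MV4-11 NC and 2 in MV4-11 knockdown. Of the 4 copies of the HSPA1B window, 3 had a peak in MV4-11 NC and 1 in MV4-11 knockdown.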

How the results depend on the processing

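Of 134 main values recomputed under an alternative, 109 stayed the same within 1.5-fold (counts) or 0.1 (log2 medians) and 25 did not. The tolerance of 0.1 is larger than the Kasumi-1 median of 0.06 itself, which was 0.01 with a window of 1000 bases. A turn of direction was defined for the log2 medians only, of which 0 turned. Of 498 differences at single members, 453 kept their call, and 0 turned from one call to the opposite one. Most of the values that did not stay came from narrow peaks. With only peaks of at least 1000 bases, members with a peak numbered 15 in MV4-11 NC and 9 in MV4-11 knockdown. In Kasumi-1 they numbered 33 in NC and 35 in knockdown, each within 1.5-fold but with their order turned. Losses in Kasumi-1 numbered 1 and gains 3, against 6 and 0 with all peaks, so that their order turned as well. Members lower in Kasumi-1 numbered 1 and higher 1. In MV4-11 gains numbered 1, members lower 0 and higher 0, and the median log2 ratio was -0.04, while 1 member had an NC peak in MV4-11 only. With only the 15000 widest peaks, 16 members had a peak in MV4-11 knockdown, Kasumi-1 lost 2 and gained 1, and 1 was higher there. In MV4-11 3 were then lower and 1 higher, with a median of -0.15. Where a peak of at least 1000 bases had to have none of any width in the other library, Kasumi-1 lost 0, MV4-11 lost 2 and MV4-11 gained 0. With a common minimum width of 357 bases and gaps under 358 bases joined, MV4-11 gained 1, HSPA5, since the DNAJC18 peak was narrower. MV4-11 losses then numbered 11, with DNAJC13, DNAJC25 and DNAJC25-GNG10 added, and 22 members had a peak in MV4-11 knockdown, both within 1.5-fold. With the start of any transcript, the MV4-11 median was -0.52. MV4-11 losses then numbered 7, without DNAJA2 and DNAJB12 and with DNAJB11 added, and the DNAJB1 difference in MV4-11 was -362 bases. With a window of 1000 bases, Kasumi-1 gained 1, HSPB9, and in it the HSPA1A difference in Kasumi-1 was -65 bases. With the lower fold threshold tried, 8 members were higher in Kasumi-1. Counting alternate haplotype copies, an alternative chosen after seeing the data, gave 35 and 29 members with a peak in MV4-11 NC and sh-ANP32B and 14 with an NC peak in Kasumi-1 only; the share of all genes was not recomputed with copies. No paired analysis was possible because each group had 1 library, and no test over both lines was run. Depth, which the lists do not give, and the merging of replicates limit every value to a description of these libraries.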

Other observations

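The cytosolic chaperonin TRiC, which folds actin and tubulin, had promoter peaks at nearly all its subunit genes. Of 9 genes, 9 had a peak in each Kasumi-1 library, 8 in MV4-11 NC and 7 in MV4-11 knockdown. The shares of all genes were 47.8%, 45.4%, 35.8% and 28.7% in the fixed library order. CCT5 had 2361 bases at its promoter in Kasumi-1 NC, 2226 in Kasumi-1 knockdown, 2996 in MV4-11 NC and 2758 in MV4-11 knockdown, whereas CCT3 had 961 and 1005 in Kasumi-1 and 0 in MV4-11. Between the NC libraries, 4 of the 8 TRiC genes with a peak in both were lower in MV4-11 and 4 were higher. The 6 prefoldin genes, whose products hand clients to TRiC, had peaks at 6, 5, 4 and 3 genes in the same library order.

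The DNAJA3 window has 1 alternate haplotype copy, which held 1323, 1397, 1244 and 960 bases in the same order, beside 1353, 1384, 1324 and 784 on chromosome 16. The copy of the DNAJC28 window held no peak, as did its window on chromosome 21.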
